A study of Homo sapiens with 12 samples.

Results

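*CXCL8*, *CXCL1*, *CXCL2* and *CXCL3* encode secreted chemokines that attract neutrophils, and their 4 rows were taken by gene symbol from a table of 19901 genes. The 4 genes were singled out from measured values of the same libraries, namely the rise of *CXCL8* with dTAG in cells without serum, its rise with serum, and the difference between its serum responses. Their changes are therefore given below as descriptions with standard errors (SE) and without p-values. RNA-Seq was done on total RNA, after removal of ribosomal RNA, from HCT116 cells, a human colorectal carcinoma line. All 12 libraries came from 1 clone, D5, whose KAP1 protein, the product of *TRIM28*, bears a degradation tag, so the control cells have the tagged protein too. Serum was withheld from all cells for 48 h, and they received either the vehicle DMSO or dTAG, a small molecule that sends the tagged protein for degradation, for the last 8 h. They were then collected without serum (S0) or after 30 min with serum (S30), which gave 4 groups of 3 replicates: DMSO-S0 and dTAG-S0 without serum, and DMSO-S30 and dTAG-S30 with it. The design asks how transcripts respond to serum with KAP1 present and after its depletion.

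CXCL8, also called interleukin 8, and the growth-regulated chemokines CXCL1, CXCL2 and CXCL3 are small ligands of the receptors CXCR1 and CXCR2 on neutrophils. In epithelial and tumour cells their genes are turned on by NF-κB, a transcription factor held in the cytoplasm by IκB proteins until a signal releases it, often together with AP-1 and C/EBP factors. Their transcripts are short-lived, because AU-rich elements recruit decay factors such as ZFP36.

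The 4 genes lie in 1 cluster on chromosome 4. In the coordinates of the count table (hg38), *CXCL8* (ENSG00000169429.10) spans chr4:73740506-73743716 and *CXCL1* (ENSG00000163739.4) spans chr4:73869393-73871242, both on the plus strand. *CXCL3* (ENSG00000163734.4) spans chr4:74036589-74038807 and *CXCL2* (ENSG00000081041.8) spans chr4:74097035-74099293, both on the minus strand. Each has 4 exons in its principal GENCODE transcript. No other annotated GENCODE gene overlaps any of them.

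The promoter sequences are shown because they carry the binding sequence through which the family is known to be controlled. All 4 genes were matched in RefSeq (GRCh38.p14), and each promoter runs from 250 bases before to 50 bases after the start. The promoter of *CXCL8* lies at chr4:73740319-73740618 on the plus strand. Capitals mark, in order, an AP-1 sequence (TGANTCA), an NF-κB sequence (GGAATTTCC) and a TATA box (TATAAA).
CXCL8 promoter: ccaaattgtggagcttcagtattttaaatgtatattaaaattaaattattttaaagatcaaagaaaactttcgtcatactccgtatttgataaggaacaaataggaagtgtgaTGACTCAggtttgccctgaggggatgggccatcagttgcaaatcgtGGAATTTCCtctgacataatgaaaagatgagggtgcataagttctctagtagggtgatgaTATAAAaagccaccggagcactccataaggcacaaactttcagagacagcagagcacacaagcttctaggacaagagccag

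The NF-κB sequence GGAATTTCC occurred in all 4 promoters, whereas 0.461% of 35116 promoters of the same length held it on either strand. Windows of 60 bases around it are shown to compare the genes, with the NF-κB sequence in capitals. They lie at chr4:73740453-73740512 and chr4:73869290-73869349 on the plus strand (*CXCL8* and *CXCL1*), and at chr4:74099238-74099297 and chr4:74038733-74038792 on the minus strand (*CXCL2* and *CXCL3*).
CXCL8: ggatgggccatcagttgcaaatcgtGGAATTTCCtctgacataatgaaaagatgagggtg
CXCL1: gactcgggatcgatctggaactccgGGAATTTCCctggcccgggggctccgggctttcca
CXCL2: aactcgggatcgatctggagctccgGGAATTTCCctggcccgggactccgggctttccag
CXCL3: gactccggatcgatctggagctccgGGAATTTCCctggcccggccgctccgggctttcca

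The NF-κB sequence began 91 bases before the RefSeq start in *CXCL8*, 78 before it in *CXCL1* and *CXCL3*, and 77 before it in *CXCL2*. In *CXCL2* and *CXCL3* the counted gene span begins further upstream than the RefSeq start and includes this sequence. The windows of *CXCL1* and *CXCL3* shared 56 of 60 bases, those of *CXCL1* and *CXCL2* 48, and those of *CXCL2* and *CXCL3* 47. The window of *CXCL8* shared 22 to 24 bases with the others. Over the whole promoters, *CXCL1*, *CXCL2* and *CXCL3* were 72.1% to 82.5% identical to each other and 42.6% to 44.9% identical to *CXCL8*. The NF-κB matches of *CXCL1*, *CXCL2* and *CXCL3* are therefore not separate occurrences, so nothing is read from the number of genes with a match. A looser NF-κB sequence, GGAANNTCC, which includes the stricter one, matched at the same place in all 4 genes and in 4.56% of all promoters. The AP-1 sequence was found in *CXCL8* of the 4 genes and in 7.71% of all promoters. The TATA box, searched on the strand of the gene, was likewise found in *CXCL8* and in 7.33% of all promoters. A C/EBP sequence (TTGCNNAA, either strand) was found in *CXCL2*, 188 to 181 bases before its start, and in 10.5% of all promoters. A match describes these letters and not a bound site, and a missing match says nothing about the factor outside these letters and this window.

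Each library held 20537682 to 26278707 counts, of which 7.97% to 9.37% came from added ERCC transcripts, synthetic RNAs used here to estimate unwanted variation. Expression is given as CPM, the counts of a gene relative to all gene counts of its library, after upper-quartile scaling. The transcript of *TRIM28*, whose protein and not its RNA is the target of dTAG, measured 96.9 ± 4.74 CPM (SD, n = 3) in DMSO-S0, 115.0 ± 5.71 in DMSO-S30, 92.6 ± 6.27 in dTAG-S0 and 112.0 ± 7.87 in dTAG-S30, so the RNA does not check the depletion. Of 12 markers of colorectal epithelium, 7 passed the count filter and summed to 1163 to 1593 CPM per library, led by *KRT8* and *EPCAM*. *CEACAM5* was at 0 counts and *CDX1* at no more than 1. Of 12 leukocyte markers, 3 passed and the list summed to 5.08 to 7.23 CPM, with *S100A8* at 0 counts, *S100A9* and *FCGR3B* at no more than 1 and *CD14* at no more than 4. The 3 that passed were *CD68* (59 to 106 counts, 3.13 to 4.67 CPM), *PTPRC* (8 to 35 counts) and *ITGAM* (6 to 20 counts).

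*CXCL8* was the most abundant of the 4 chemokine transcripts and was higher with serum and, in the absence of serum, with dTAG. In DMSO-S0 the 3 libraries held 64, 61 and 47 counts, or 3.39, 2.80 and 2.31 CPM. In dTAG-S0 they held 153, 224 and 226 counts, or 7.19, 9.70 and 9.41 CPM. Every dTAG-S0 library lay above every DMSO-S0 library. With serum, the DMSO-S30 libraries held 753, 788 and 724 counts, or 37.0, 34.7 and 35.0 CPM. The dTAG-S30 libraries held 713, 820 and 871 counts, or 32.01, 36.7 and 39.5 CPM. The groups with serum overlapped each other, and both lay above all libraries without serum.

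Serum raised *CXCL8* 13.3-fold under DMSO (log2 fold change 3.74 ± 0.13 SE) and 3.95-fold under dTAG (1.98 ± 0.10). dTAG raised it 3.23-fold without serum (1.69 ± 0.14). With serum, the fitted change with dTAG was −0.06 ± 0.09 on the log2 scale, while the group means were 36.1 ± 3.77 CPM (SD) with dTAG and 35.6 ± 1.23 CPM with DMSO, so the estimate and the means differ in sign and both differences are smaller than their errors. The difference between the serum responses, the interaction, was −1.75 ± 0.18 on the log2 scale. These comparisons share groups with each other, so their values are not independent.

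The difference between the serum responses depends on the scale on which it is read. In CPM, serum added 32.7 ± 0.777 (SE) to *CXCL8* under DMSO and 27.3 ± 2.32 under dTAG, a difference of −5.43 ± 2.44 CPM. dTAG-S0 stood 5.94 ± 0.851 CPM above DMSO-S0, and dTAG-S30 stood 0.504 ± 2.29 CPM above DMSO-S30. The levels without serum differed by more than the spread between replicates, and those with serum by less.

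*CXCL1* encodes the growth-regulated alpha chemokine and had higher values in dTAG-treated cells with and without serum. The DMSO-S0 libraries held 11, 16 and 15 counts (0.583, 0.734 and 0.736 CPM) and the dTAG-S0 libraries 41, 31 and 44 counts (1.93, 1.34 and 1.83 CPM). The DMSO-S30 libraries held 32, 33 and 21 counts (1.57, 1.45 and 1.01 CPM) and the dTAG-S30 libraries 44, 44 and 56 counts (1.98, 1.97 and 2.54 CPM). Each pair of groups that differed in 1 factor was free of overlap. Without serum, *CXCL1* stood 2.42-fold higher with dTAG (log2 1.27 ± 0.29 SE), and with serum 1.65-fold higher (0.72 ± 0.26). Serum went with a 1.90-fold higher level in DMSO-treated cells (0.93 ± 0.31) and a 1.30-fold higher level in dTAG-treated cells (0.38 ± 0.24).

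*CXCL2*, which encodes the growth-regulated beta chemokine, followed serum more than dTAG. The DMSO-S0 libraries held 5, 13 and 13 counts (0.265, 0.596 and 0.638 CPM) and the DMSO-S30 libraries 61, 70 and 71 counts (2.99, 3.08 and 3.43 CPM). The dTAG-S0 libraries held 21, 30 and 17 counts (0.987, 1.30 and 0.708 CPM) and the dTAG-S30 libraries 93, 87 and 98 counts (4.18, 3.89 and 4.44 CPM). Again no 2 groups that differed in 1 factor overlapped. Serum raised *CXCL2* 6.03-fold in DMSO-treated cells (log2 2.59 ± 0.29 SE) and 4.26-fold in dTAG-treated cells (2.09 ± 0.23). The values with dTAG were 0.94 ± 0.34 without serum and 0.44 ± 0.20 with it. In CPM, serum added 2.67 ± 0.177 (SE) with DMSO and 3.17 ± 0.233 with dTAG, so the sign of the difference between the serum responses in CPM (0.502 ± 0.293) was opposite to that on the log2 scale (−0.50 ± 0.41), and both lay within 2 SE of 0.

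*CXCL3*, which encodes the growth-regulated gamma chemokine, had the lowest counts of the 4 genes. The DMSO-S0 libraries held 6, 10 and 9 counts (0.318, 0.459 and 0.442 CPM) and the dTAG-S0 libraries 16, 19 and 19 counts (0.752, 0.823 and 0.791 CPM), without overlap. The DMSO-S30 libraries held 6, 14 and 4 counts (0.295, 0.617 and 0.193 CPM) and the dTAG-S30 libraries 12, 37 and 21 counts (0.539, 1.66 and 0.952 CPM), which overlapped. The log2 values with dTAG were 0.999 ± 0.461 (SE) without serum and 1.38 ± 0.45 with it. Those for serum were −0.04 ± 0.55 under DMSO and 0.34 ± 0.38 under dTAG, where the groups overlapped. Neither serum value has a stable sign, since the one under DMSO was 0.03 with trimmed-mean (TMM) scaling and the one under dTAG was −0.12 without dTAG-S30 replicate 2. The value for dTAG with serum was 1.997 without DMSO-S30 replicate 2 and 0.93 without dTAG-S30 replicate 2.

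**Figure D1:**
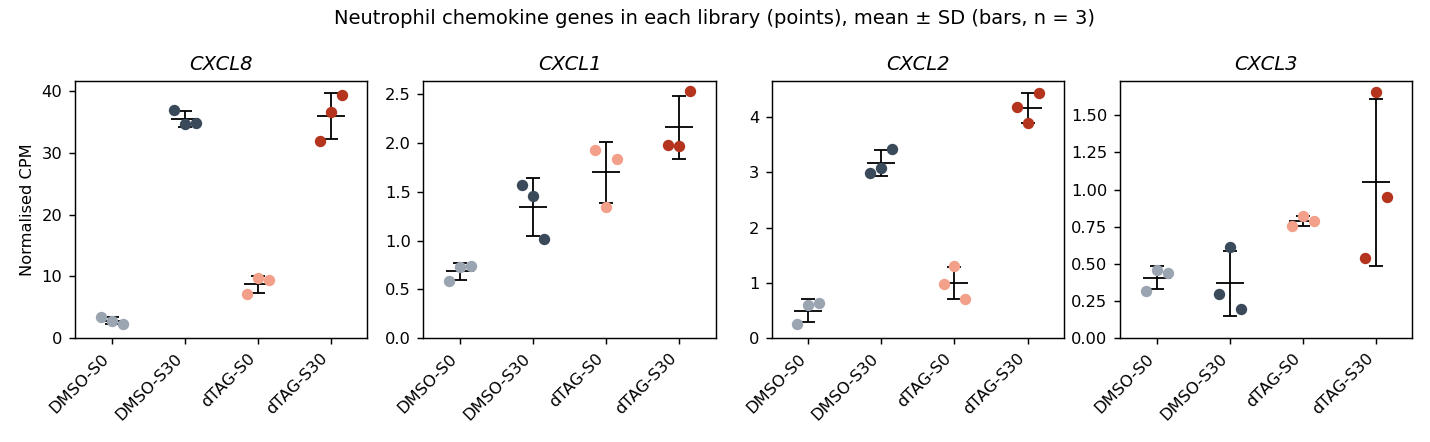
Normalised CPM of each chemokine gene in the 12 libraries, grouped on the horizontal axis by treatment and serum, with the mean and SD of 3 libraries as black bars and a separate linear axis from 0 for each gene. *CXCL8* rises from 2.83 CPM in DMSO-S0 to 8.77 in dTAG-S0 and meets at 35.6 and 36.1 CPM with serum, while *CXCL1* and *CXCL2* remain higher with dTAG after serum.

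Against all genes tested, dTAG without serum gave 2 of the 4 genes as higher at an adjusted p under 0.05 (*CXCL8* and *CXCL1*), where the background of higher calls was 0.848% of 13093 genes and that of lower calls 0.435%. In that comparison the lowest dTAG library exceeded the highest DMSO library in all 4 genes, and in 8.5% of all genes tested. Without any replicate of DMSO-S0, or without replicate 1 or 3 of dTAG-S0, 1 gene was called, *CXCL8*. Nothing is read from these counts, since the comparison was used in choosing the genes. With serum, dTAG gave 0 of the 4 as higher or lower (background 0.596% and 0.634%), or 1, *CXCL3*, without dTAG-S30 replicate 1, and 2 of 4, *CXCL1* and *CXCL2*, had no overlap (7.62%). The adjusted p of edgeR covers all 13093 genes, and its test sets the difference between groups against the spread between replicates. The 3 replicates of each group come from 1 clone, and the study's methods call them biological replicates.

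Serum gave 3 of the 4 genes as higher in DMSO-treated cells (*CXCL8*, *CXCL1* and *CXCL2*), beside 9.17% of all genes higher and 17% lower. Without replicate 2 or 3 of DMSO-S0, or replicate 1 or 2 of DMSO-S30, it gave 2, *CXCL8* and *CXCL2*. In dTAG-treated cells it gave 2 (*CXCL8* and *CXCL2*), beside 9.05% higher and 15.3% lower. The same 3 genes had all libraries with serum above all without it in both treatments, where the background was 13.8% with DMSO and 12.6% with dTAG. The split of serum calls over all genes moved with the scaling. The alternative with library sizes from the ERCC total, named ERCC library sizes throughout, also leaves out the factor of unwanted variation. Leaving out that factor alone gave 1247 higher and 2523 lower under DMSO and 1287 and 2234 under dTAG. In DMSO-treated cells the split was 1200 higher and 2231 lower here, 1695 and 1055 with TMM scaling, and 1175 and 595 with ERCC library sizes. In dTAG-treated cells it was 1185 and 2008 here, 1580 and 977 with TMM scaling, and 1021 and 613 with ERCC library sizes. For dTAG without serum it was 111 and 57 here and 60 and 14 with ERCC library sizes. In the interaction, 1 of the 4 genes, *CXCL8*, was called lower, beside 0.0382% of all genes lower and 0% higher. Nothing is read from the serum and interaction counts of the 4 genes either. The serum rise of *CXCL8* and the difference between its serum responses were used in choosing them.

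**Figure D2:**
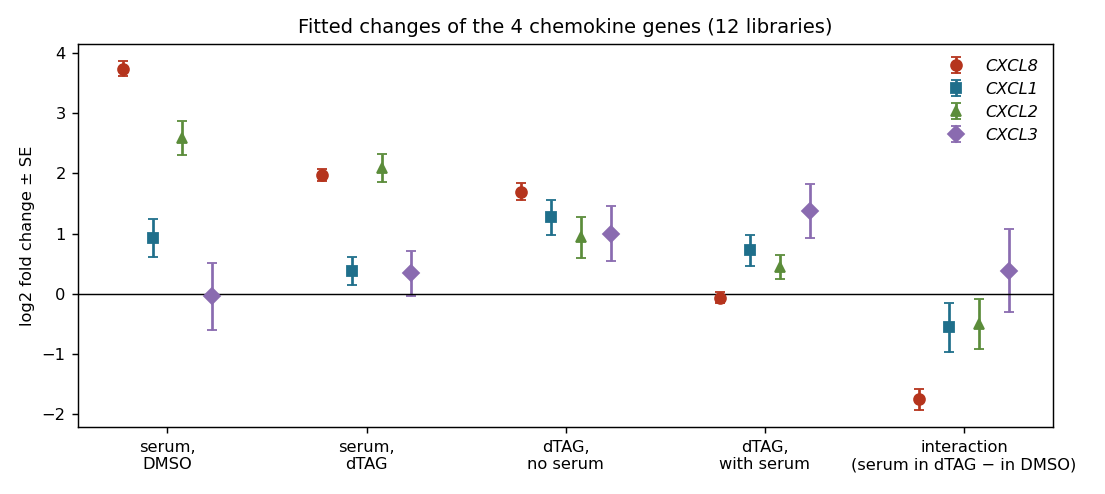
Fitted log2 fold change (vertical axis) with its SE for each chemokine gene in the serum, dTAG and interaction comparisons (horizontal axis), from 1 fit of 12 libraries. *CXCL8* has the highest serum value in DMSO-treated cells, 3.74, and an interaction of −1.75, while *CXCL3* has the widest errors.

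Levels of different genes were compared per kilobase of the counted gene span, introns included, because longer genes gather more reads. In every group *CXCL8* was the highest and *CXCL3* the lowest by the mean. In DMSO-S0, *CXCL8* measured 0.882 ± 0.169 CPM per kb (SD, n = 3), *CXCL1* 0.370 ± 0.0474, *CXCL2* 0.221 ± 0.0904 and *CXCL3* 0.183 ± 0.0346, and the last 2 overlapped. In dTAG-S0 the order was the same, from 2.73 ± 0.427 for *CXCL8* over 0.919 ± 0.170 for *CXCL1* and 0.442 ± 0.131 for *CXCL2* to 0.355 ± 0.0159 for *CXCL3*, again with overlap of *CXCL2* and *CXCL3*. With serum, *CXCL2* stood second. In DMSO-S30 the values fell from 11.1 ± 0.384 for *CXCL8* to 1.40 ± 0.102 for *CXCL2*, 0.728 ± 0.159 for *CXCL1* and 0.166 ± 0.0997 for *CXCL3*. In dTAG-S30 they fell from 11.2 ± 1.17 to 1.85 ± 0.122, 1.17 ± 0.177 and 0.472 ± 0.254 in the same order. No neighbours in the order overlapped in either group with serum.

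*CXCL1*, *CXCL2* and *CXCL3* are close copies of each other, which bears on how reads are assigned. Of all 50-base windows of the gene, the read length of the study, 3.0% in *CXCL1*, 8.01% in *CXCL2* and 6.22% in *CXCL3* also occurred in another of the 4 genes, mostly between *CXCL2* and *CXCL3*. None of 3162 windows of *CXCL8* did. How reads with several matches were counted is not given in the sources used here, so the low counts of *CXCL1*, *CXCL2* and *CXCL3* are uncertain to that extent.

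Across the 12 libraries, log2 CPM of *CXCL8* and *CXCL2* varied together (Pearson's r = 0.943), those of *CXCL8* and *CXCL1* less so (0.714), and those of *CXCL8* and *CXCL3* little (0.180). *CXCL1* had r = 0.693 with *CXCL2* and 0.629 with *CXCL3*, and *CXCL2* had 0.216 with *CXCL3*. These values describe 4 groups of 3 libraries that share a serum and a dTAG difference, and *CXCL3* also has the lowest counts.

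The genes whose log2 CPM was most like that of *CXCL8* over the 12 libraries were *INSIG1* (r = 0.989), a brake on sterol synthesis, *COQ10B* (0.979), *NFIL3* (0.977), a bZIP repressor, *AZIN1* (0.977), which restrains antizyme, and *NT5E* (0.976), which makes extracellular adenosine. By rank correlation the nearest of these, *NFIL3*, stood at position 26 of all genes and *INSIG1* at 457, so the list depends on the measure. *INSIG1* had a mean of 114 CPM in DMSO-S0, 194 in dTAG-S0, 397 in DMSO-S30 and 441 in dTAG-S30. For *CXCL1* the nearest were *PARM1* (0.939) and *XBP1* (0.938), a factor of the unfolded protein response. For *CXCL2* the nearest was *BACH2* (0.970), a bZIP repressor. For *CXCL3* they were *URB2* (0.868) and *ERI1* (0.862).

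Other chemokine genes of the same cluster were at or near 0 counts. Within 500 kb of a chemokine gene the table held 13 further genes, of which 4 passed the count filter. *PF4V1*, *PF4*, *PPBP* and *CXCL5*, platelet and neutrophil chemokines that lie between *CXCL1* and *CXCL3* or just before *CXCL1*, had 0 counts in all 12 libraries, which allows up to 3 counts, or 0.126 to 0.161 CPM, in a library. *CXCL6* had at most 1 count. *ALB*, *AFP*, *AFM* and *EPGN* had at most 10, 1, 3 and 12 counts. Of the tested neighbours, *AREG* and *EREG*, ligands of the EGF receptor, rose with serum in DMSO-treated cells by 2.51 ± 0.07 (log2, SE, adjusted p = 2.42e-21) and 0.96 ± 0.06 (1.98e-12), and in dTAG-treated cells by 2.15 ± 0.06 (3.48e-20) and 0.83 ± 0.06 (2.64e-11).

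With dTAG, none of the 4 tested neighbours passed the threshold in either state. Of all genes tested, 0.848% were called higher and 0.435% lower without serum, and 0.596% and 0.634% with it. At these shares, the absence of calls among 4 genes does not set the neighbours apart. Without serum, *AREG* had a log2 value of 0.20 ± 0.06 (adjusted p = 0.134), *EREG* 0.13 ± 0.06 (0.390), *MTHFD2L*, a mitochondrial folate enzyme, −0.10 ± 0.06 (0.563), and *RASSF6*, a RAS-association protein, −0.07 ± 0.17 (0.925). *MTHFD2L*, which starts between *CXCL2* and *EREG*, fell with serum in both treatments by 0.28 on the log2 scale (adjusted p = 0.00208 with DMSO and 0.0016 with dTAG), and neither call held with ERCC library sizes. *RASSF6* fell with serum in dTAG-treated cells by 0.50 ± 0.18 (adjusted p = 0.0405), a call lost under TMM scaling, with ERCC library sizes and without replicate 1 or 3 of DMSO-S30, replicate 1 or 3 of dTAG-S0 or any of dTAG-S30 (adjusted p = 0.0508 to 0.145).

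**Figure D3:**
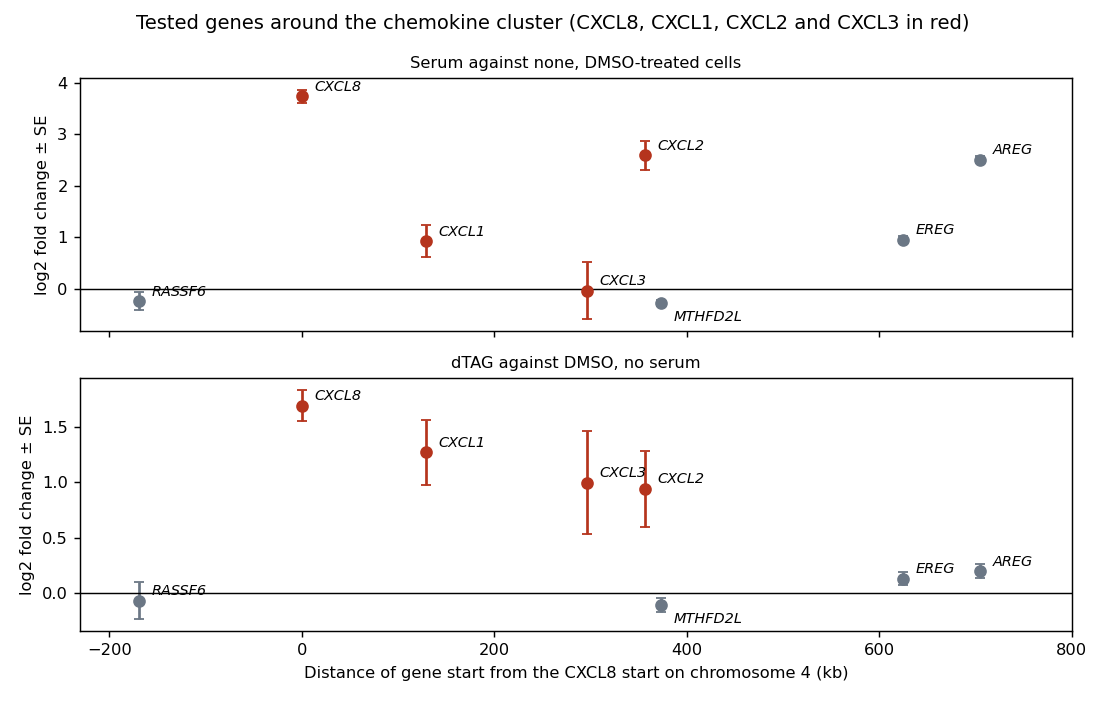
Log2 fold change with SE (vertical axes) of the 8 tested genes against the distance of their start from that of *CXCL8* in kb (horizontal axis), for serum in DMSO-treated cells (top) and dTAG without serum (bottom). The 4 chemokine genes, in red, lie between 0.94 and 1.69 with dTAG, and the 4 neighbours, in grey, between −0.10 and 0.20. The rises of *CXCL8* with serum and with dTAG were used in choosing the 4 chemokine genes. Nothing is read from their contrast with the neighbours.

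Few chemokines outside the 4 genes were detected, and none of those tested passed the threshold. With so few tested, nothing is read from that count. Of 13 other CXC chemokines, 2 passed the count filter, *CXCL13* and *CXCL16*, and 0 were called in any comparison. *CXCL16*, a membrane-bound chemokine, measured 24.8 ± 1.39 CPM (SD, n = 3) in DMSO-S0 and 26.4 ± 2.96 in dTAG-S0 (log2 0.09 ± 0.09 SE, adjusted p = 0.760). Of 23 CC, C and CX3C chemokines, 1 passed, *CCL27*, with at most 20 counts, and it was called in no comparison. *CCL20*, an NF-κB-responsive chemokine of epithelium, had at most 4 counts. The receptors *CXCR1* and *CXCR2* had at most 1 and 4 counts and the decoy receptor *ACKR1* had 0, so 0 of 3 receptors could be tested.

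Several genes of NF-κB subunits and feedback were higher with dTAG, and none was called lower. The lists, like the 4 genes, were written with results of these libraries known. Without serum, 2 of 5 subunits were called higher with dTAG, beside 0.848% of all genes higher and 0.435% lower. *RELB*, of the non-canonical pathway, went from 14.3 ± 1.81 CPM (SD, n = 3) in DMSO-S0 to 19.6 ± 0.944 in dTAG-S0 (log2 0.44 ± 0.11 SE, adjusted p = 0.0276). *NFKB1*, which encodes p105 and p50, went from 57.7 ± 0.627 to 70.6 ± 5.67 CPM (0.30 ± 0.07, adjusted p = 0.0163). Both calls were lost with ERCC library sizes (0 of 5 subunits), without DMSO-S0 replicate 2 and without dTAG-S0 replicate 3, *RELB* also without dTAG-S0 replicate 1 (adjusted p = 0.11 to 0.203) and *NFKB1* also without DMSO-S0 replicate 3 (0.0722 to 0.190). The median of the 5 subunits was 0.30 on the log2 scale beside −0.01 for all genes tested. With serum, 0 of 5 passed, beside 0.596% of all genes higher and 0.634% lower, and the median was 0.24.

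Of 14 inhibitors and feedback genes, 3 rose with dTAG without serum and 1 with serum, beside 0.848% and 0.596% of all genes called higher. *BIRC3*, an NF-κB target that encodes an inhibitor of apoptosis, went from 7.52 ± 0.876 to 18.97 ± 1.85 CPM without serum (log2 1.35 ± 0.12 SE, adjusted p = 3.67e-08) and from 7.90 ± 1.14 to 18.9 ± 1.03 with it (1.24 ± 0.12, adjusted p = 3.67e-07). Its serum values were 0.09 with DMSO (adjusted p = 0.640) and −0.02 with dTAG (0.923). *TRAF1*, a TNF receptor adaptor, went from 2.74 ± 0.398 to 4.78 ± 0.355 CPM without serum (0.78 ± 0.17, adjusted p = 0.0155). *NFKBIA*, which encodes IκBα, stood 0.33 ± 0.08 higher on the log2 scale (adjusted p = 0.0268). The median of the list was 0.20 without serum and 0.10 with it. The *BIRC3* calls held in every alternative, whereas the *TRAF1* call was lost without replicate 2 or 3 of DMSO-S0 or replicate 1 or 3 of dTAG-S0 (adjusted p = 0.0563 to 0.122). The *NFKBIA* call was lost with ERCC library sizes and without any replicate of DMSO-S0, replicate 1 or 3 of dTAG-S0 or replicate 1 of DMSO-S30 (0.0556 to 0.198).

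Serum also raised genes of these lists. Of all genes tested, it gave 9.17% as higher under DMSO and 9.05% under dTAG. All 5 subunits rose under DMSO and 4 of 5 under dTAG, or 4 and 4 with ERCC library sizes and 5 and 5 under TMM scaling. Under DMSO the *RELA* call (adjusted p = 0.0162) was lost without replicate 2 or 3 of DMSO-S0 or replicate 1 or 3 of DMSO-S30 (0.0507 to 0.107), and the *NFKB1* call (0.0415) without any replicate of DMSO-S0 or replicate 1 or 3 of DMSO-S30 (0.0696 to 0.227). The rises were led by *REL* (log2 1.26, adjusted p = 2.77e-13, and 0.995, 1.52e-11) and *RELB* (1.10, 3.49e-09, and 0.90, 4.12e-08). Of the 14 inhibitors and feedback genes, 5 rose with DMSO and 4 with dTAG, among them *BCL3* (1.44, 1.90e-09, and 1.25, 1.69e-08), a nuclear IκB protein, *NFKBID* (1.31, 9.59e-11, and 0.84, 2.41e-07) and *NFKBIZ* (0.85, 3.36e-07, and 0.73, 1.72e-06). *TNFAIP3*, which encodes the feedback enzyme A20, rose by 0.51 with DMSO (0.0103, and 0.0504 without DMSO-S30 replicate 1) and 0.52 with dTAG (0.00382). *NFKBIA* had serum values of 0.10 (adjusted p = 0.402) and 0.04 (0.767).

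Of 25 NF-κB-inducible cytokine and surface genes, 24 were in the table and 12 passed the count filter. *TNF*, *IL1A*, *IL1B* and *IL6* did not, with at most 4, 8, 1 and 2 counts in a library. With dTAG, 1 of 12 rose without serum, *PLAU*, the urokinase gene, from 13.9 ± 1.63 to 19.3 ± 2.13 CPM (log2 0.49 ± 0.11, adjusted p = 0.0154), and this call was lost with ERCC library sizes (0.0618) and without replicate 2 or 3 of DMSO-S0 or replicate 1 or 3 of dTAG-S0 (adjusted p = 0.0893 to 0.154). With serum, 1 of 12 rose, *TNFAIP2* (0.36 ± 0.09, adjusted p = 0.0260), also lost with ERCC library sizes and without replicate 1 or 2 of DMSO-S30 or any of dTAG-S30 (0.0540 to 0.265). All 12 values were above 0 without serum (median 0.27) and 10 of 12 with it (median 0.23). The medians over all genes tested were −0.006 and −0.000. The share of all genes above 0 was not taken, so nothing is read from the number of values above 0. Of all genes tested, dTAG gave 0.848% as higher without serum and 0.596% with it. Serum raised 4 of 12 in each treatment, *PLAU* (2.31 and 1.95), *IER3* (1.61 and 1.51), *LIF* (1.21 and 1.03) and *IL18* (0.63 and 0.59), and lowered 1, *CSF1* (−0.61 and −0.59). Beside this, 9.17% of all genes were higher and 17% lower under DMSO, and 9.05% and 15.3% under dTAG. The *CSF1* call was lost under TMM scaling in both treatments and, under dTAG, with ERCC library sizes (adjusted p = 0.0694). Under DMSO it was also lost without any 1 replicate of DMSO-S0 or DMSO-S30 or without dTAG-S0 replicate 1 (0.0548 to 0.233), and under dTAG without DMSO-S0 replicate 1, dTAG-S0 replicate 3 or dTAG-S30 replicate 1 or 3 (adjusted p = 0.0718 to 0.185).

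Of 27 genes of IL-1, TNF and TLR signalling, which lead to NF-κB, 24 were tested and 0 were called with dTAG in either state. The shares over all genes were 0.848% higher and 0.435% lower without serum, and 0.596% and 0.634% with it. At these shares, 0 calls among 24 genes does not set the list apart. The medians of the list were 0.02 without serum and 0.06 with it. Serum raised 2 and lowered 3 of the 24 under DMSO, beside 9.17% and 17% of all genes, and raised 3 and lowered 5 under dTAG, beside 9.05% and 15.3%. Under TMM scaling the counts were 4 and 2 under DMSO and 4 and 3 under dTAG, and with ERCC library sizes 2 and 1, and 2 and 2. *MAP3K14*, which encodes the kinase NIK of the non-canonical pathway, rose by 1.87 ± 0.08 (log2, SE, adjusted p = 2.98e-16) and 1.75 ± 0.08 (9.44e-16), while *TRAF2* fell by 0.48 ± 0.08 with DMSO (5.06e-05). *TNFRSF1B*, with at most 25 counts, had 1.85 with dTAG without serum (adjusted p = 0.067).

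**Figure D4:**
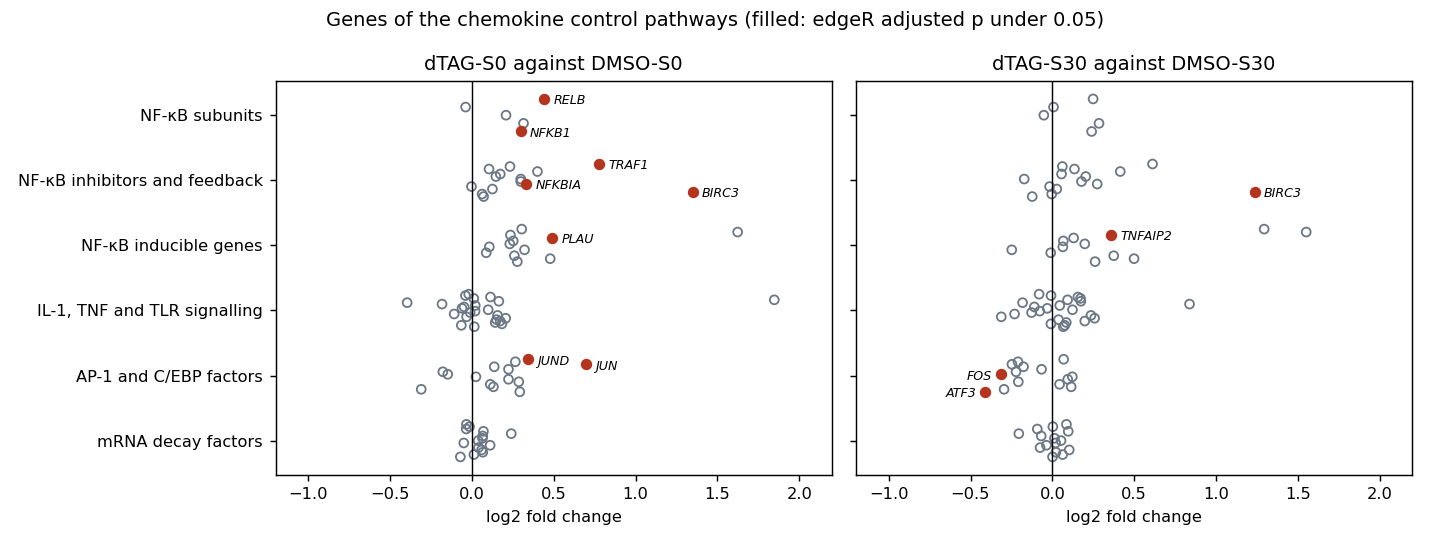
Log2 fold change with dTAG (horizontal axes) without serum (left) and with serum (right) of the tested genes of 6 lists (vertical axis, 1 row of points per list), filled in red and named where the adjusted p of edgeR was under 0.05. *BIRC3* stands at 1.35 and 1.24, all other red points lie between −0.41 and 0.78, and no gene of IL-1, TNF and TLR signalling or of mRNA decay is red. Among all genes tested, 0.848% were called higher and 0.435% lower without serum, and 0.596% and 0.634% with it.

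Genes of AP-1 subunits rose with serum in both treatments, and *JUN* also rose with dTAG without serum. Of 14 AP-1 and C/EBP genes, serum raised 10 under DMSO and 11 under dTAG and lowered 0, with medians of 2.30 and 1.90 on the log2 scale. Beside this, 9.17% of all genes were higher under DMSO and 9.05% under dTAG. Without serum, dTAG raised 2 of 14, beside 0.848% of all genes. *JUN*, a core AP-1 subunit, went from 9.84 ± 0.128 CPM (SD, n = 3) in DMSO-S0 to 15.8 ± 1.18 in dTAG-S0 (log2 0.69 ± 0.10 SE, adjusted p = 0.000109), and *JUND* from 63.8 ± 2.08 to 80.1 ± 10.5 (0.34 ± 0.08, adjusted p = 0.0276). The *JUND* call was lost with ERCC library sizes and without replicate 2 or 3 of DMSO-S0, replicate 1 or 3 of dTAG-S0, DMSO-S30 replicate 1 or dTAG-S30 replicate 3 (0.0527 to 0.278). With serum, dTAG lowered 2 of 14, beside 0.634% of all genes. *ATF3*, a stress-responsive partner of JUN, went from 1041 ± 61.0 CPM in DMSO-S30 to 783 ± 58.2 in dTAG-S30 (−0.41 ± 0.07, adjusted p = 0.000805), and *FOS* from 485 ± 43.9 to 391 ± 16.9 (−0.32 ± 0.07, adjusted p = 0.0164, and 0.0875 without dTAG-S30 replicate 1).

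The interaction called 5 genes of 13093, all with a smaller log2 serum response in dTAG-treated cells. Beside *CXCL8* they were *JUN* (log2 −0.94 ± 0.12 SE, adjusted p = 0.000335), *INSIG1* (−0.63 ± 0.09, 0.000735), *ATG12* (−0.54 ± 0.08, 0.00239), an autophagy gene, and *ATF3* (−0.70 ± 0.12, 0.00552). The *ATF3* call was lost with ERCC library sizes, without DMSO-S0 replicate 2 and without dTAG-S0 replicate 3 (adjusted p = 0.0645 to 0.0703). *ATG12* was named after its value was seen. *JUN* measured 186 ± 13.7 CPM in DMSO-S30 and 159 ± 15.5 in dTAG-S30 (dTAG with serum −0.25, adjusted p = 0.0937). Serum raised it by 4.26 on the log2 scale with DMSO and by 3.32 with dTAG.

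Of 16 factors that act on AU-rich transcripts, 15 were tested and 0 were called with dTAG in either state, with medians of 0.04 and 0.01. Over all genes the shares were 0.848% higher and 0.435% lower without serum, and 0.596% and 0.634% with it. At these shares, 0 calls among 15 genes does not set the list apart. Serum raised 6 of the 15 and lowered 0 under DMSO, beside 9.17% and 17% of all genes. Under dTAG it raised 6 and lowered 1, beside 9.05% and 15.3%. The medians of the list for serum were 0.09 and 0.06. Under TMM scaling 8 rose under DMSO and 7 under dTAG. *ZFP36*, which encodes the decay factor tristetraprolin, rose with serum by 3.42 ± 0.08 (log2, SE, adjusted p = 3.27e-22) under DMSO and by 3.36 ± 0.08 (2.82e-22) under dTAG. Its dTAG values were −0.04 (adjusted p = 0.926) without serum and −0.09 (0.707) with it. *ZC3H12A*, which encodes the nuclease Regnase-1, rose by 1.44 ± 0.10 (1.52e-11) and 0.996 ± 0.099 (1.19e-08).

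In bulk RNA, a change in the share of cells that express a gene and a change in the amount per cell cannot be told apart. Of 10 fibroblast and endothelial markers, 3 passed the count filter, and their list summed to 14.4 to 18.97 CPM without serum and 68.7 to 89.0 CPM with it. Most of that was *COL1A1* (11.8 to 85.5 CPM per library), while *LUM* was at 0 counts and *COL1A2* at no more than 1. By treatment, its sums were 16.9 to 18.97 CPM in DMSO-S0 and 14.4 to 17.7 in dTAG-S0, which overlap, and 82.6 to 89 CPM in DMSO-S30 and 68.7 to 80.3 in dTAG-S30, which do not. The leukocyte list summed to 5.20 to 5.69 CPM in DMSO-S0 and 5.08 to 5.97 in dTAG-S0, so its ranges overlapped where *CXCL8* differed. *CD68*, at 3.13 to 4.67 CPM per library over all groups, is part of that sum.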

How the data were processed

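RNA-Seq counts of 12 libraries in 4 groups of 3 were analysed. Per the submitters' processing notes and the study's methods, the authors trimmed reads with Trim Galore 0.6.4, aligned them to hg38 and counted reads per gene, introns included, with featureCounts of Subread 1.6.3, and the deposited values are raw counts per gene without normalisation. Strand and the treatment of multi-mapped reads are not given in the sources used here. No per-sample column went unused (0).

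Of the genes, 13093 reached 10 counts in 6 or more libraries and were kept, and 6808 were left out. Upper-quartile scaling and 1 factor of unwanted variation from 69 ERCC transcripts entered the model. The number of factors is not stated by the study. edgeR 4.0.16 in R 4.3.3 fitted all 4 groups together with its quasi-likelihood test, two-sided, with Benjamini-Hochberg adjustment and a threshold of 0.05. The SE belongs to the fitted log2 fold change. The procedure was tested on simulated data. Alternatives were TMM scaling, library sizes from the ERCC total without the factor of unwanted variation, no factor, 2 factors, no filter, the likelihood ratio test, DESeq2 1.42.0, the compared groups alone, a replicate block and leaving out each library.

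The 4 genes and all gene lists were chosen with earlier results of these data known. The text names those 4 genes, up to 4 called genes per list and comparison with the largest change, the genes most correlated with each of the 4, all genes within 500 kb and *TRIM28*. Of these, 1 gene is not reported here. Other list genes whose values are given beside these, such as cytokines under the filter, were added after their values were seen. Promoters came from RefSeq (GRCh38.p14). Overlaps and exons were read from a GENCODE annotation that may not be the authors' own. Depth of 20537682 to 26278707 counts per library limits genes with few counts, and counting limits cover counting error alone.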

Additional observations from a re-analysis of the deposited data

Results flagged for a closer look

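The serum response differed between dTAG- and DMSO-treated cells in 5 of the genes described, by the interaction term of the edgeR fit. *CXCL8* had a log2 serum response lower by 1.75 in dTAG-treated cells (−1.75), a value that was used in choosing the gene. *JUN* had −0.942 (adjusted p = 0.000335) and *ATF3* −0.702 (adjusted p = 0.00552). *INSIG1* had −0.626 (adjusted p = 0.000735) and *ATG12* −0.545 (adjusted p = 0.00239). Among *CXCL8*, *JUN* and *ATF3*, the single comparisons called *CXCL8* and *JUN* higher with dTAG without serum, and *ATF3* lower with dTAG with serum. For *ATF3* and *JUN* the other of these comparisons was not called. *ATF3* had a log2 value of 0.29 with dTAG without serum (adjusted p = 0.134), and *JUN* −0.25 with serum (0.0937). *INSIG1* had 0.77 with dTAG without serum and 0.15 with it, both above 0. Whether these values passed the threshold, and the values of *ATG12* in these comparisons, are not given here.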

How the results depend on the processing

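Of 416 alternative values of the 4 chemokine genes, 409 moved by less than the SD between replicates, 7 moved by more and 0 called values reversed. The 7 concerned *CXCL2* and *CXCL3*. For *CXCL3* the log2 value with dTAG without serum was 0.77 with 2 factors and 0.65 to 1.21 when a library was left out. Its serum value in DMSO-treated cells ranged from −0.65 to 0.29 and its interaction from −0.04 to 1.03 when a library was left out. Its value for dTAG with serum ranged from 0.93 to 1.997 and its serum value under dTAG from −0.12 to 0.80, the lowest of each without dTAG-S30 replicate 2. The values −0.65 and 1.03 came without DMSO-S30 replicate 2. Leaving out replicate 1 of DMSO-S0 gave 0.65, leaving out its replicate 2 gave 1.21, and the interaction was 0.96 without dTAG-S30 replicate 1. With the likelihood ratio test and without a count filter, 1 of the 4 genes, *CXCL3*, was called higher with dTAG with serum. *CXCL8* ranged from 1.57 to 1.80 with dTAG without serum and from −1.85 to −1.57 in the interaction.

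The number of genes called depended on the setting, and the cause was not tested. With ERCC library sizes and no factor of unwanted variation it was 1770 for serum with DMSO, 1634 for serum with dTAG, 74 for dTAG without serum, 71 for dTAG with serum and 3 for the interaction. Without a count filter it was 275, 406 and 29 for the last 3 of these, and with the likelihood ratio test 283, 266 and 10. The interaction gave 8 with TMM scaling, 9 with 2 factors and 11 with DESeq2. Leaving out 1 library gave 2114 to 3982 for serum with dTAG, 67 to 289 for dTAG without serum, 91 to 263 for dTAG with serum and 4 to 8 for the interaction.

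Replicates of the same number did not vary together (r from −0.15 to 0.14 in 18 pairs, 1 of them over 0.1). Replicates of different number had r from −0.20 to 0.26 in 36 pairs. These values show no pairing, but they cannot tell whether replicates of the same number were handled together. With a replicate block, *CXCL2* had 0.54 with dTAG with serum, and the counts of called genes were 3499, 3261, 172, 169 and 7 in the order above. *CXCL3*, with 4 to 37 counts, is limited by depth.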
